A study of Mus musculus with 17 samples.

Results

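The subunits of the mitochondrial respiratory chain were followed by complex in mouse liver cells. They were taken as the genes whose symbols match Nduf (a, b, c, s or v series), Sdh a to d, Uqcr, Cox4 to Cox8 or Atp5 in the deposited tables. Of the 16137 genes with a row in all 3 tables, 83 met this rule: 36 in complex I, 4 in complex II, 8 in complex III, 18 in complex IV and 17 in complex V. An 84th gene, Ndufb4b of complex I, had a row in the Kupffer cell table only. Ndufa4 and Ndufa4l2 were counted in complex IV, with which NDUFA4 protein is known to associate. The tables used here hold no row for Ndufb1, Cox8b or Cox8c and no transcript of the mitochondrial genome, so all subunits described are encoded in the nucleus.

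The respiratory chain passes electrons from NADH through complex I, or from succinate through complex II, to ubiquinone, then through complex III and cytochrome c to complex IV, where oxygen is reduced. Complexes I, III and IV pump protons across the inner membrane, and complex V, the ATP synthase, lets them back through a rotating ring of c subunits to make ATP. The mRNAs of nuclear-encoded subunits are known to be controlled by the transcription factors NRF1, GABPA and ERR alpha and by coactivators of the PGC-1 family, and hepatocytes are rich in mitochondria.

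The 17 poly(A)-selected libraries fall into 5 groups. Early hepatocellular carcinoma (HCC) cells came from DEN-induced mice, DEN being a common short form of diethylnitrosamine, a liver carcinogen, with 3 libraries of genotype KO for Mef2d and 3 of genotype WT. Cells labelled normal liver gave 3 libraries from mice with no stated treatment. Kupffer cells are macrophages that reside in liver sinusoids. The Kupffer cell libraries came from DEN-induced mice in a setting the labels call PME, with 4 labelled KC1 and 4 labelled KC2 and no further definition of these 2 names. Strain, age, the deleted part of Mef2d and the number of animals are not given in the labels, nor whether replicates came from separate animals or cultures. The p-values therefore reflect library-to-library spread, which may be technical. The comparisons were KO with WT early HCC, WT early HCC with normal liver, and KC2 with KC1, and the first 2 share the WT libraries.

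Some members share genomic bases with another gene in the annotation, among them Atp5a1 with Haus1, Ndufs1 with Eef1b2, Ndufb6 with Smim27 and Atp5o with Donson, and Ndufb4, Ndufb4b and Ndufb4c are near copies. The strand setting of the counting is not given in the sources used here, so reads of such pairs could have been shared and these values are uncertain to that extent. Each library held between 15353249 and 18637765 expected counts. Levels are given as CPM, the count relative to the scaled library total, and 3 counts correspond to 0.161 to 0.195 CPM before scaling. Mef2d, the targeted gene, was at 66.1 ± 2.67 CPM in KO, 99.8 ± 2.98 in WT and 57.1 ± 5.18 in normal liver cells (SD, n = 3 each), a difference of -0.60 ± 0.04 (SE), edgeR adjusted p = 2.5e-10. Since the deleted part is not stated, the remaining reads do not test the label. Hepatocyte markers (6 of 7 with a row) summed to 118 to 128 CPM in normal liver libraries, to 0.951 to 1.23 in WT and to 0.402 to 2.59 in KO, with Serpina1a at 0 in WT, and nearly all of the normal liver sum was Hnf4a, at 124, 115 and 119 CPM. Alb was at 2.41 CPM on average in normal liver libraries, and Apoa1, Cps1, Serpina1a and Cyp2e1 were lower still, so the secreted and metabolic markers of hepatocytes were near 0 in all 3 hepatic groups. Cholangiocyte markers summed to 1525 to 1568 CPM in normal liver cells, with Epcam at 0, against 30.0 to 32.1 in WT and 69.3 to 71.8 in KO. Krt19, Krt7 and Sox9 carried that sum, while Epcam averaged 15.3 CPM in WT and 36.3 in KO. In these bulk libraries fewer cells of a type and less RNA per cell cannot be told apart.

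Subunit mRNAs made up 0.756% of all counts in KO, 0.906% in WT, 0.847% in normal liver, 0.872% in KC1 and 0.977% in KC2 libraries on average. Most subunit genes were well expressed: 78 of 83 had a group mean of at least 5 CPM in KO and in WT, 77 of 83 in normal liver and 76 of 84 in each Kupffer group. The rows under 5 CPM were mainly tissue-specific isoforms, with Cox4i2, Cox6a2, Cox6b2, Cox7a1 and Ndufa4l2 low in every group. Per kilobase of transcript, the catalytic beta subunit of ATP synthase, Atp5b, was the highest member in all hepatic groups, at 828 CPM per kb in KO, 1044 in WT and 673 in normal liver. Cox4i1, the ubiquitous complex IV subunit 4, came next in these groups at 482, 501 and 407 CPM per kb. In Kupffer cells Cox4i1 and Cox6a1 were among the highest, at 536 ± 60.0 and 478 ± 88.5 CPM per kb in KC1 and at 486 ± 49.8 and 494 ± 62.4 in KC2 (SD, n = 4), and their order lay within the spread of the libraries.

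**Figure D1:**
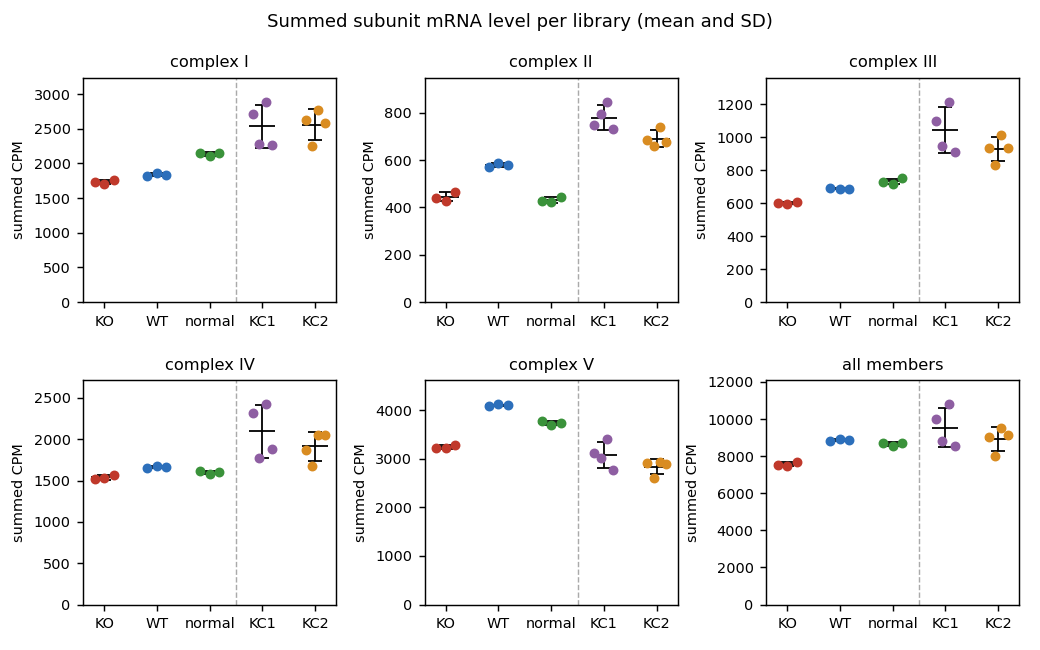
Summed CPM of the subunit genes of each complex, and of all members, in each library (points), with the group mean and SD (n = 3 for KO, WT and normal liver, n = 4 for KC1 and KC2). The dashed line separates hepatic from Kupffer libraries, which were scaled separately; KO libraries lie below WT libraries in every complex, and KC1 and KC2 libraries overlap.

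The first comparison asked whether early HCC cells of the 2 Mef2d genotypes differed in subunit mRNAs. They were mostly lower in KO: 44 of 80 tested members fell and 15 rose (edgeR quasi-likelihood test, adjusted p under 0.05). Over all 12093 genes tested, 64.8% were called, 32.3% lower and 32.4% higher, and among members 59 of 80, or 73.8%, were called. Values in parentheses after a gene are log2 fold changes ± SE from the edgeR fit. The SE was derived as the absolute log2 fold change divided by the square root of the F statistic. The median log2 fold change was -0.18 for members and -0.00 for all genes tested. Changes were small: 5 members fell and 3 rose by at least 1.5-fold, against 10.1% and 9.65% of all genes. Summed over all members, the level was 7566 ± 115 CPM in KO and 8875 ± 53 in WT (SD, n = 3 each), a log2 ratio of -0.23, and the groups did not overlap. The log2 ratio of summed levels was -0.08 for complex I, -0.38 for complex II, -0.19 for complex III, -0.12 for complex IV and -0.34 for complex V.

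**Figure D2:**
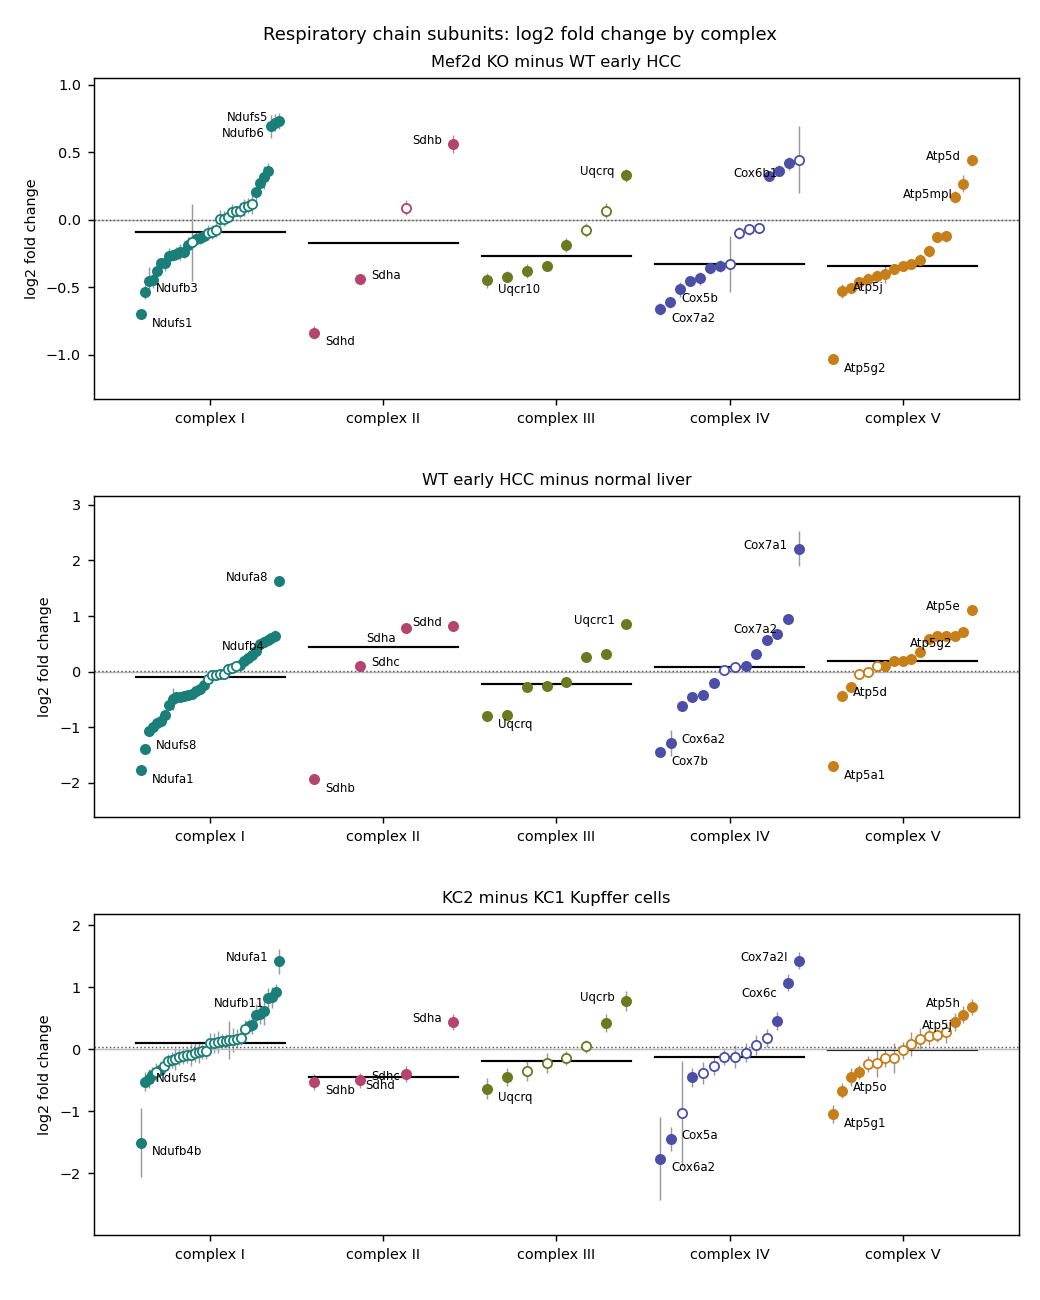
Log2 fold change of each tested member (points, sorted within a complex; whiskers, SE) in the 3 comparisons; filled points passed an edgeR adjusted p of 0.05, black bars are the median of the complex and the dotted line is the median of all tested genes. Cox7b2, at 0 in normal liver, is left out of the middle panel's points. In the KO comparison all 17 complex V members are filled and 14 lie below 0.

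Complex V was mostly lower in KO than in WT. All 17 members were called, 14 lower and 3 higher, with a median of -0.34, though Atp5e lost its call with DESeq2 and without KO replicate 1, and Atp5h with DESeq2 and without KO replicate 3. The largest drop of any member was in Atp5g2, which encodes a copy of the c subunit of the rotating ring. Atp5g2 was at 123, 136 and 126 CPM in KO replicates 1 to 3 and at 257, 265 and 262 CPM in WT, and the log2 fold change was -1.03 ± 0.04 (SE), edgeR adjusted p = 8.6e-15. All 3 KO values lay below all 3 WT values. The same c subunit is made from Atp5g3, which fell (-0.46 ± 0.04), and from Atp5g1, which rose (0.17 ± 0.04). The 3 genes together gave 336 ± 2.26 CPM in KO and 507 ± 8.25 in WT (SD, n = 3), and per kilobase the share of Atp5g2 was 35.9% in KO and 49.5% in WT.

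In the F1 head of complex V, the alpha subunit Atp5a1 (-0.36 ± 0.03), the beta subunit Atp5b (-0.34 ± 0.03) and the gamma subunit Atp5c1 of the central stalk (-0.33 ± 0.03) fell by nearly the same amount. Atp5b was at 1563, 1569 and 1627 CPM in KO and 1979, 2002 and 2022 in WT. Atp5e, the epsilon subunit, fell by less (-0.13 ± 0.04), and the delta subunit Atp5d was the exception in the head and stalk, at 129.5, 126 and 135 CPM in KO against 95.0, 92.9 and 99.2 in WT (0.44 ± 0.04 (SE), edgeR adjusted p = 8.3e-09). All 4 peripheral stalk genes fell, with log2 fold changes of -0.53 for Atp5j, -0.51 for Atp5pb, -0.41 for Atp5o and -0.12 for Atp5h. Among 5 accessory membrane subunits 4 fell, and Atp5mpl rose (0.27 ± 0.06).

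Complex II, succinate dehydrogenase, has 4 subunits that moved apart. Sdhd, a membrane anchor, was at 70.8, 70.1 and 75.4 CPM in KO and 123, 125 and 136 in WT (-0.83 ± 0.05 (SE), edgeR adjusted p = 3.6e-12). Sdha, the flavoprotein that oxidises succinate, fell too, from 359 ± 9.66 to 266 ± 11.1 CPM (-0.44 ± 0.04). Sdhb, the iron-sulphur subunit that takes the electrons from SDHA, rose from 22.4, 20.5 and 21.4 CPM in WT to 30.3, 33.4 and 31.4 in KO (0.56 ± 0.06 (SE), edgeR adjusted p = 2.1e-07). Sdhc, the other anchor, was not called (0.09 ± 0.05, adjusted p = 0.16). The ratio of Sdha to Sdhb per kilobase was 3.32 ± 0.247 in KO and 6.61 ± 0.413 in WT (SD, n = 3), and these ranges did not overlap.

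Of 36 complex I members 7 rose and 16 fell, with a median of -0.09. The NADH-oxidising N module held the largest drop: Ndufs1, its large iron-sulphur subunit, was at 76.1, 77.2 and 75.3 CPM in KO and 125, 122 and 122 in WT (-0.70 ± 0.04 (SE), edgeR adjusted p = 2.5e-12). Ndufv1, which binds NADH, fell less (-0.26 ± 0.04), and Ndufs4, an N module accessory subunit, rose (0.36 ± 0.06). In the Q module, where ubiquinone is reduced, 3 of 8 members were called, all lower, and Ndufs7 (0.00 ± 0.07, adjusted p = 0.97), an iron-sulphur subunit, was not among them. Of the 3, Ndufs3 kept its call in every alternative, Ndufa6 lost it with DESeq2 and without KO or WT replicate 2, and Ndufa7 with DESeq2 and without KO replicate 2. The proton-pumping P module had 5 higher and 9 lower of 19. Among these, Ndufb2, counted as higher, lost its call in 6 of 12 alternatives, and Ndufc2 and Ndufb10, counted as lower, in 2 and 1. The highest P module members were Ndufs5 (0.73 ± 0.06), Ndufb6 (0.72 ± 0.06) and Ndufa1 (0.69 ± 0.08), a small membrane subunit encoded on the X chromosome. The lowest was Ndufb3 (-0.53 ± 0.05). Ndufb6 was at 35.3, 34.1 and 37.0 CPM in KO and 21.2, 22.1 and 21.1 in WT, without overlap. Ndufb4 (-0.45 ± 0.10) and Ndufa13 (-0.45 ± 0.06) also fell.

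In complex III 5 of 8 members fell and 1 rose. The core proteins Uqcrc1 (-0.35 ± 0.03) and Uqcrc2 (-0.42 ± 0.04), the Rieske iron-sulphur protein Uqcrfs1 (-0.38 ± 0.05) and the small subunit Uqcr10 (-0.45 ± 0.06) fell together, and Uqcrq rose from 99.9 ± 4.32 to 126 ± 8.93 CPM (0.33 ± 0.05). In complex IV 7 of 15 tested members fell and 3 rose. Cox7a2 fell from 110.0, 105 and 110.2 CPM to 70.3, 69.1 and 67.0 (-0.66 ± 0.04 (SE), edgeR adjusted p = 2.3e-11), and Cox5b (-0.61 ± 0.04), Cox7b2 (-0.52 ± 0.06), Cox8a (-0.45 ± 0.04), Cox7b (-0.43 ± 0.05) and Cox5a (-0.34 ± 0.05) fell as well. Cox6b1 (0.42 ± 0.05), Ndufa4 (0.36 ± 0.04) and Cox7a2l (0.33 ± 0.03), a factor that joins complexes III and IV into supercomplexes, rose. Cox4i1 (-0.06 ± 0.04, adjusted p = 0.16) and Cox6a1 (-0.10 ± 0.04, adjusted p = 0.062) were not called.

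Genes of some chromosomes shifted as a whole between KO and WT. Chromosome 4 genes had a median log2 fold change of 0.49 (760 tested), and 3 of its 4 members rose: Ndufs5, Ndufb6 and Sdhb. Relative to that median Sdhb was 0.07, Ndufb6 0.23 and Ndufs5 0.25 higher on the log2 scale. Chromosome 9 genes had a median of -0.25 (665 tested), and all 5 of its members fell: Sdhd, Uqcrc1, Cox5a, Cox7a2 and Atp5l. Chromosome 7 genes had a median of 0.24 (930 tested), and its 6 members split, with 2 higher and 2 lower. Outside chromosomes 4 and 9, 12 of 71 tested members rose and 39 fell. Of all 59 called members 58 had groups that did not overlap. The same share was not taken over all tested genes, so this count cannot be read as a trait of the members. Atp5g2 on chromosome 15 and Ndufs1 on chromosome 1 lay on chromosomes with medians of -0.08 and -0.12. The part of any chromosome-wide shift in the members' values was not tested.

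**Figure D3:**
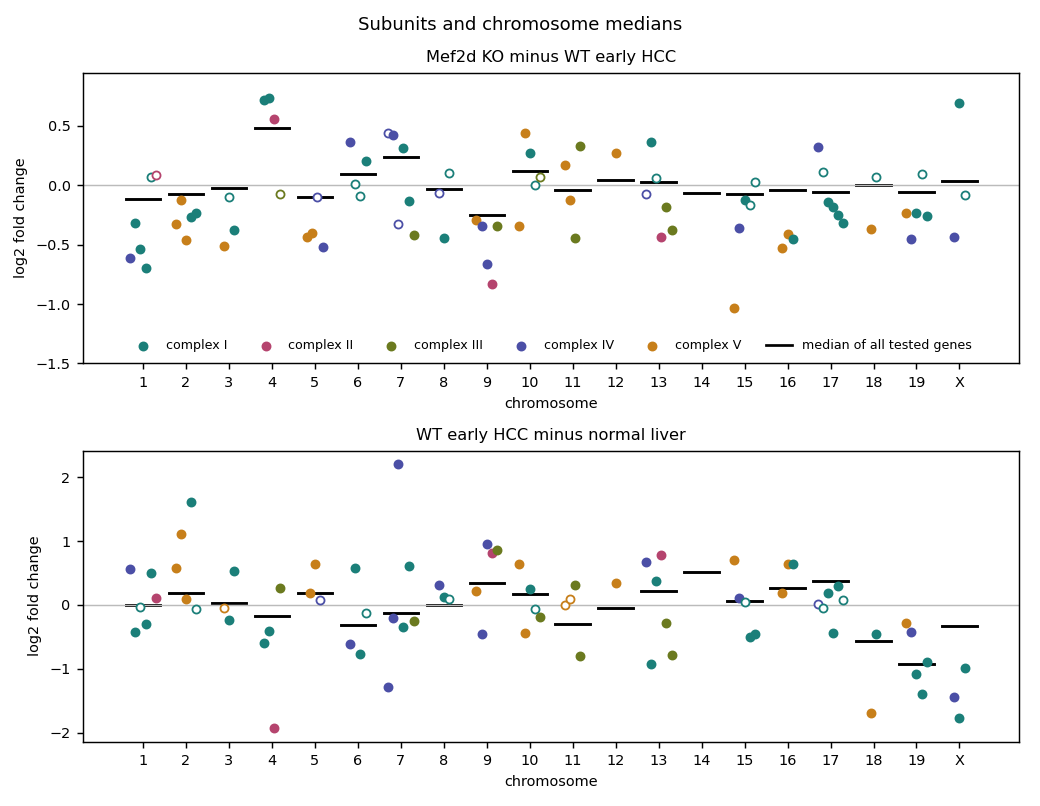
Log2 fold change of each tested member (points, coloured by complex; filled where the edgeR adjusted p was under 0.05) by chromosome, with the median of all tested genes of that chromosome (black bars), for KO minus WT and for WT early HCC minus normal liver. In the upper panel the bar of chromosome 4 stands at 0.49 and that of chromosome 9 at -0.25; in the lower panel all 5 members on chromosome 19 lie below 0, as does its bar at -0.92. Cox7b2 is left out of the lower panel.

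Promoter sequences were read next. RefSeq windows on GRCm38.p6, running from 250 bases before a start to 50 after it, were at hand for 68 members. The consensus of NRF1, searched on either strand, was in the windows of 17 of these 68 members, or 25.0%, against 11.5% of the 9726 tested genes with a window and 5.19% of all 27025 genes. A GABPA (ETS) site (CCGGAAG) was in 17 members, 25.0%, against 20.7% of tested genes, a YY1 site (ATGGCGG) in 10, 14.7%, against 9.52%, and an ERR site (TCAAGGTCA) in 2, Atp5g3 and Sdhd, against 0.319%. The consensus of MEF2 factors was in 0 of 68 windows and 0.442% of those of tested genes. A match describes letters in a short window and is not evidence of binding. The windows of the members with the largest drops, Atp5g2 and Sdhd, are shown with that of Ndufs5, the member that rose most; capitals mark NRF1, GABPA or ERR letters.
Atp5g2 (chr15:102670998-102671297, minus strand): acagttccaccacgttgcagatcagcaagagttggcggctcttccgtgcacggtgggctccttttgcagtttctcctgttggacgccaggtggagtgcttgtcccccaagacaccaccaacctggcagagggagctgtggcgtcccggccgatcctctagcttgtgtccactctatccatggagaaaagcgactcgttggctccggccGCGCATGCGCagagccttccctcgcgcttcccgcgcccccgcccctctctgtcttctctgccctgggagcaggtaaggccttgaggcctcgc
Sdhd (chr9:50603800-50604099, minus strand): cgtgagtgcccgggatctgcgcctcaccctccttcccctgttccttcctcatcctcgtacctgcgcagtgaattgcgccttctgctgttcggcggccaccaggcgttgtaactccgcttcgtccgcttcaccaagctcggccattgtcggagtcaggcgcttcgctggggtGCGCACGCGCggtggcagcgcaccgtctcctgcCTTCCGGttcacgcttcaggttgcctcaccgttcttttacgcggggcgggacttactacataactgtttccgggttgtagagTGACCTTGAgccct
Ndufs5 (chr4:123718137-123718436, minus strand): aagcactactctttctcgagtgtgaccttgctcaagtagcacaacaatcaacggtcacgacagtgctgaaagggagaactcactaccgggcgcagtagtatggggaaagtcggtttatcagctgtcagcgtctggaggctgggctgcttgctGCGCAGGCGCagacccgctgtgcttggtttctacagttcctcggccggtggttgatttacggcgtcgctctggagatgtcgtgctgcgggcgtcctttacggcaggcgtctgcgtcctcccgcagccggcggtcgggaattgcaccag
The capitals in Atp5g2 are an NRF1 match, those in Sdhd are an NRF1, a GABPA and an ERR match in that order, and those in Ndufs5 are an NRF1 match, so NRF1 letters stood in front of members that fell and of the one that rose most. Of the 17 members with NRF1 letters, 12 fell and 1 rose in KO against WT (median -0.33), beside 44 lower and 15 higher of all 80 tested members, while among all 1115 tested genes with these letters 30.6% fell and 36.8% rose. Of the 17 members with GABPA letters 9 fell and 3 rose (median -0.12), while of all tested genes with these letters 29.0% fell and 36.4% rose. Of the 10 with YY1 letters 3 fell and 2 rose (median -0.04), against 36.6% and 30.9% of all tested genes with them. These groups were formed after the values were seen and were not tested.

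Genes around the chain gave a mixed picture in KO against WT. Among regulators, Ppargc1a, the coactivator PGC-1 alpha, was at 0.345, 0.459 and 0.283 CPM in KO and 70.5, 72.8 and 74.3 in WT (-7.62 ± 0.11 (SE), edgeR adjusted p = 5.4e-21), and Esrra, which encodes ERR alpha, fell (-0.41 ± 0.05), as did Ppargc1b (-0.33 ± 0.11). Hif1a (0.57 ± 0.04), the oxygen-regulated factor HIF-1 alpha, and Myc (0.52 ± 0.04) rose. Nrf1 (0.03 ± 0.05), Gabpa (0.00 ± 0.04) and Tfam (0.06 ± 0.04), the packaging factor of mitochondrial DNA, were not called, with adjusted p of 0.55, 0.98 and 0.26. Of 18 tested genes of the tricarboxylic acid cycle 12 fell and 3 rose, led by Idh3a (-1.11 ± 0.04), a subunit of isocitrate dehydrogenase. Assembly factors split as 7 lower and 4 higher of 15 for complex I and 9 lower and 6 higher of 24 for complex IV. Proteins of the mitochondrial ribosome split evenly, with 22 higher and 20 lower of 78 and a median of 0.01. The mobile carrier Cycs, cytochrome c, was not called (0.05 ± 0.04, adjusted p = 0.27).

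The second comparison set WT early HCC cells beside normal liver cells. Here 35 of 80 tested members were higher in early HCC and 32 lower, in a comparison in which 87.2% of all 12697 tested genes were called, 43.8% higher and 43.3% lower. The members' median was 0.04 and that of all genes 0.01, and the members had no common direction. By at least 1.5-fold 16 were higher and 15 lower, against 29.7% of all genes in each direction. Every gene in the early HCC tables had a count in at least 1 early HCC library, so genes read in normal liver alone are not covered. Subunits of the same complex differed in opposite directions.

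**Figure D4:**
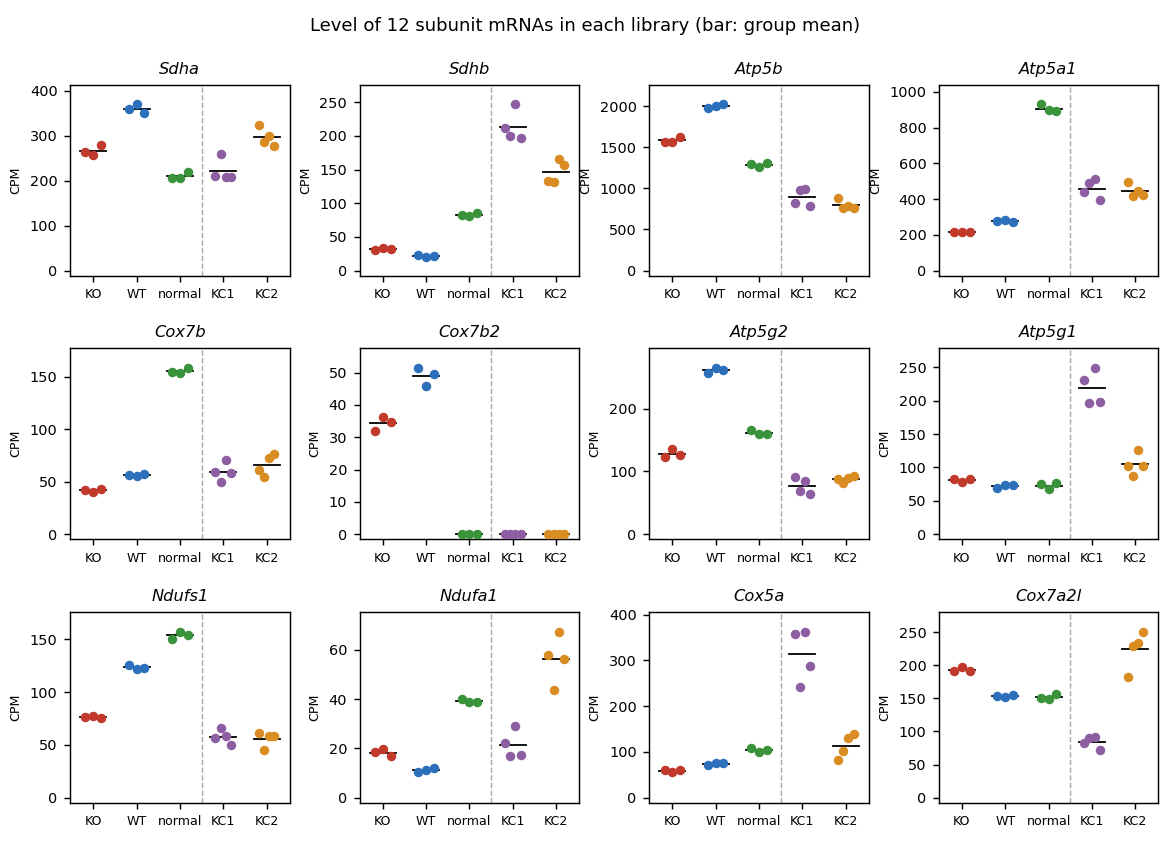
CPM of 12 members in each library (points) with the group mean (bar) for KO, WT, normal liver, KC1 and KC2; the dashed line separates libraries that were scaled separately. Sdha and Atp5b are higher and Sdhb and Atp5a1 lower in WT than in normal liver without overlap, Cox7b2 is read in KO and WT, and Cox5a and Cox7a2l separate KC1 from KC2.

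In complex II, Sdha was higher in early HCC, at 359, 369 and 349.9 CPM against 205, 206 and 219 (0.79 ± 0.04 (SE), edgeR adjusted p = 1.1e-13), and Sdhd too (0.82 ± 0.05). Sdhb was at 22.4, 20.5 and 21.4 CPM against 82.4, 80.2 and 85.0 in normal liver (-1.93 ± 0.05 (SE), edgeR adjusted p = 7.1e-18), the largest drop of any member. The Sdha to Sdhb ratio per kilobase was 6.61 ± 0.413 in WT and 0.978 to 1.01 across normal liver libraries (SD for WT, n = 3). Sdhc was called higher by a small amount (0.11 ± 0.05, adjusted p = 0.046), its groups overlapped, and it lost its call in 8 of 12 alternatives. Of the 4 assembly factors of complex II, Sdhaf1 (-1.53 ± 0.13), Sdhaf3 (-1.53 ± 0.13) and Sdhaf2 (-0.59 ± 0.05) were lower and Sdhaf4 higher (0.66 ± 0.12).

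In complex V, 11 of 17 members were higher and 3 lower. Atp5g3, counted as higher, lost its call in 4 of 12 alternatives. Atp5b was higher, at 1979, 2002 and 2022 CPM against 1302, 1265 and 1303 (0.65 ± 0.03 (SE), edgeR adjusted p = 2.5e-13), while its partner in the F1 head, Atp5a1, was at 277, 282 and 272 CPM against 929.8, 898 and 893 (-1.70 ± 0.04 (SE), edgeR adjusted p = 7.4e-20). The alpha and beta subunits alternate in equal number in the F1 head, and the ratio of their mRNAs per kilobase, Atp5b to Atp5a1, was 9.32 ± 0.242 in WT and 1.83 ± 0.0413 in normal liver. Atp5e (1.11 ± 0.06), Atp5g2 (0.71 ± 0.04) and Atp5c1 (0.59 ± 0.04) were higher, and Atp5d (-0.44 ± 0.04) and Atp5md (-0.28 ± 0.05) lower. The summed level of complex V was 4108 ± 15.2 CPM in WT and 3743 ± 45.8 in normal liver, a log2 ratio of 0.13 that turned to -0.22 once Atp5b was left out. The c ring genes Atp5g1 (-0.01 ± 0.05, adjusted p = 0.90) and Atp5g3 (0.10 ± 0.04) moved little or not at all.

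**Figure D5:**
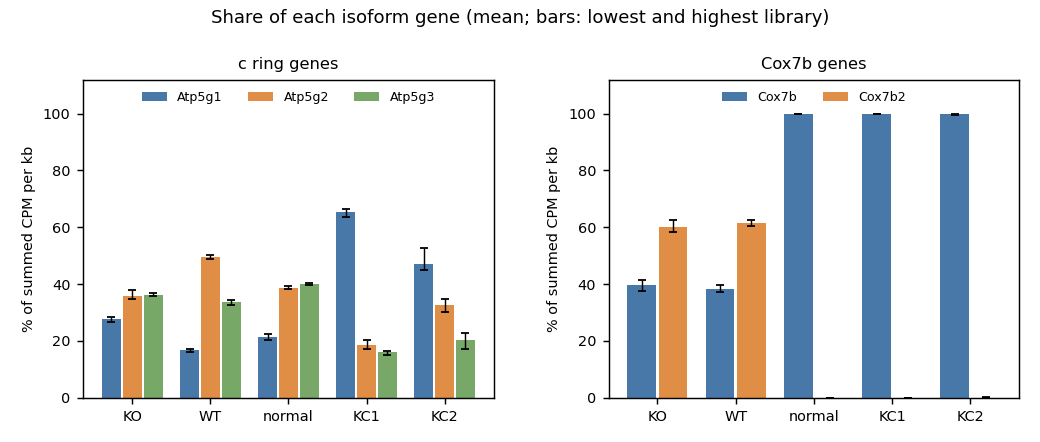
Share of each isoform gene in the summed CPM per kilobase of its family, for the 3 c ring genes and for Cox7b with Cox7b2; bars are group means and whiskers the lowest and highest library (n = 3, 3, 3, 4 and 4). Atp5g2 holds 49.5% of the c ring in WT and 35.9% in KO, Atp5g1 holds 65.3% in KC1, and Cox7b2 holds 61.6% and 60.2% of its family in WT and KO.

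In complex IV, 7 of 15 tested members were higher and 6 lower. Cox6c, counted as higher, lost its call in 6 of 12 alternatives. The Cox7b isoform pair differed in opposite directions. Cox7b, the ubiquitous isoform, was at 56.5, 55.8 and 57.0 CPM in WT against 154, 154 and 158 in normal liver (-1.45 ± 0.04 (SE), edgeR adjusted p = 1.1e-17). Cox7b2, which in human is known mainly from testis, was at 51.4, 45.9 and 49.7 CPM in WT and 32.1, 36.4 and 34.7 in KO and had 0 counts in all 3 normal liver libraries. Set against a floor of 3 counts over the normal group, this is at least 927-fold higher in WT and at least 636-fold higher in KO. Per kilobase Cox7b2 made up 61.6% of the family in WT, with transcript lengths of 542 bases for Cox7b2 and 1001 for Cox7b. That share depends on these lengths, since by CPM alone Cox7b was the higher of the pair in every WT library. In Kupffer cells it had 0 counts in all KC1 libraries and a trace in 1 KC2 library. The promoter windows of the pair are shown because the genes went opposite ways; capitals in Cox7b2 mark a TATA letter match (TATAAA, either strand), and Cox7b held none of the searched letters.
Cox7b (chrX:106015450-106015749, plus strand): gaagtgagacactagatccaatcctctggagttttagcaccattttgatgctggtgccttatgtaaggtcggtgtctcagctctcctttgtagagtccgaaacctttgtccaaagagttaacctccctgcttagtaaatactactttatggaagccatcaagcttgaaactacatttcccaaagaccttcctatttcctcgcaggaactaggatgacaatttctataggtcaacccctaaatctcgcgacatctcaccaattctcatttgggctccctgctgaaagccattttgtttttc
Cox7b2 (chr5:71548156-71548455, minus strand): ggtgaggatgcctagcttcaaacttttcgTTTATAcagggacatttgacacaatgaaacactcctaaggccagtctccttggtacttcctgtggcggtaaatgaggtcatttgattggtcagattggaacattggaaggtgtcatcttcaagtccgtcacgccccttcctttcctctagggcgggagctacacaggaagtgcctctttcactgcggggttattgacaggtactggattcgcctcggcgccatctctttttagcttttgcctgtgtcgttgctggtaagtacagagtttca
TATAAA letters were in the windows of 10.3% of the members and 8.70% of the tested genes. Cox7a2 (0.95 ± 0.05), Cox7c (0.67 ± 0.04), Cox5b (0.56 ± 0.04) and Cox4i1 (0.31 ± 0.04) were higher in early HCC, and Ndufa4 (-0.61 ± 0.05), Cox5a (-0.46 ± 0.04) and Cox8a (-0.42 ± 0.04) lower. The muscle-type isoforms Cox7a1 (2.38 against 0.515 CPM) and Cox6a2 (1.15 against 2.85 CPM) were called in opposite directions at very low levels.

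In complex I, 11 of 36 members were higher and 17 lower, 3 and 8 of them by at least 1.5-fold. Ndufa13, counted as higher, and Ndufb4c, counted as lower, lost their calls in 8 and 7 of 12 alternatives. Ndufa8, a P module subunit of the intermembrane space, was at 61.5, 56.6 and 53.5 CPM in WT against 17.6, 19.3 and 19.3 (1.62 ± 0.07 (SE), edgeR adjusted p = 3.3e-15). Ndufa1 was at 10.5, 11.4 and 12.1 CPM against 39.9, 38.7 and 38.8 (-1.78 ± 0.07 (SE), edgeR adjusted p = 1.5e-15), and Ndufs8, an iron-sulphur subunit of the Q module, (-1.40 ± 0.06) and Ndufb8 (-1.08 ± 0.04) were lower too. Ndufb4 (0.64 ± 0.10) and Ndufc2 (0.61 ± 0.05) were higher, while Ndufv1 (-0.90 ± 0.04) and Ndufs1 (-0.31 ± 0.04) were lower. Ndufs7 was not called (-0.06 ± 0.08, adjusted p = 0.46). In complex III, Uqcrc1 was higher, at 209, 216 and 214 CPM against 123, 116 and 117 (0.86 ± 0.04 (SE), edgeR adjusted p = 2.9e-14), and its partner Uqcrc2 was lower (-0.25 ± 0.05). Uqcrq (-0.80 ± 0.05), Uqcrfs1 (-0.79 ± 0.05) and Uqcrb (-0.29 ± 0.05) were lower, and Uqcr10 (0.31 ± 0.05) and Uqcrh (0.26 ± 0.05) higher.

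Chromosome-wide differences accompanied this comparison as well. Chromosome 19 genes had a median of -0.92 (459 tested), and all 5 members there were lower: Ndufb8, Ndufs8, Ndufv1, Cox8a and Atp5md. Chromosome 18 had a median of -0.57, and Atp5a1 differed from it by -1.13. Sdhb differed by -1.76 from the chromosome 4 median of -0.18. Measured from the chromosome 19 median, Ndufv1 was at 0.02, Cox8a at 0.49 and Atp5md at 0.63, and Ndufs8 stayed at -0.48. The X chromosome had a median of -0.33, and its members Ndufa1, Ndufb11 and Cox7b were all lower. The 4 tested genes of the Y chromosome had a median of 5.23; the sex of the animals is not given in the labels, and the part of sex in the members' values was not tested. Among 12 regulators, Ppargc1a was higher in early HCC, from 5.32, 4.47 and 4.92 CPM in normal liver (3.90 ± 0.07). Ppargc1b (5.50 ± 0.26), Esrrg, Mef2d, Yy1 and Nrf1 were higher too, and Esrra (-0.81 ± 0.06), Pprc1, Gabpb1, Myc and Gabpa were lower. Ppargc1b averaged 8.57 CPM in WT and Esrrg 0.760, so both differences rest on very low normal liver levels. The part of chromosome-wide shifts and of the marker differences given above was not tested.

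The third comparison set KC2 beside KC1 Kupffer cells. Of 80 tested members 18 were higher in KC2 and 17 lower, or 43.8% in all, against 59.7% called among all 12774 tested genes (31.8% higher, 27.8% lower). By at least 1.5-fold 9 members were higher and 6 lower, against 28.3% and 23.2% of all genes. The members' median was -0.05 and that of all genes 0.03. Summed levels overlapped between the groups for every complex, with 9537 ± 1041 CPM in KC1 and 8929 ± 638 in KC2 over all members (SD, n = 4 each). The split depended on scaling. With library totals in place of TMM factors the median of all genes moved to 0.27 and the members' median to 0.19. The members' calls moved to 27 higher and 3 lower of 80, while 38.6% of all tested genes were then higher and 20.3% lower. Of the 18 higher members 11 kept their call in all 14 alternatives, and of the 17 lower members Atp5g1, Atp5o and Cox5a did. Leaving out a library changed the number of lower calls to 10 (KC1 replicate 1 or 3) or 11 (KC2 replicate 2), and of higher calls to 12 (KC1 replicate 4).

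The 2 groups also differed in markers of other cells. Macrophage markers (7 of 7 with a row, none at 0) summed to 13669 to 22192 CPM in KC1 and 1115 to 7747 in KC2. Vsig4 of this list went the other way on average, at 372 ± 220 CPM in KC1 and 459 ± 269 in KC2 (SD, n = 4). The other listed macrophage markers averaged lower in KC2. Markers of sinusoidal endothelium (6 of 6, none at 0) summed to 348 to 487 CPM in KC1 and 6175 to 9082 in KC2, those of neutrophils (4 of 4) to 37.9 to 169 and 428 to 3660, and those of B cells (3 of 3) to 3.69 to 5.40 and 64.8 to 397. Hepatocyte markers (7 of 7, none at 0) summed to 41.9 to 72.5 CPM in KC1 and 147 to 226 in KC2, T cell markers (2 of 3) to 0.473 to 1.45 and 20.3 to 101, and cholangiocyte markers (5 of 5, with Epcam and Cldn4 at 0 in KC1) to 0.417 to 1.32 and 8.60 to 61.9. KC2 replicate 1 stood apart, with a chi-square per degree of freedom over genes of 116 to 147 against the other KC2 libraries, which gave 20.4 to 33.5 among themselves, and without it 16 members were higher and 18 lower. The part of these cells in the subunit levels was not tested.

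Complex IV held the largest differences. Cox5a, a subunit on the matrix side of the enzyme, was at 358, 243, 363 and 289 CPM in KC1 and 83.1, 102, 131 and 138 in KC2 (-1.44 ± 0.20 (SE), edgeR adjusted p = 0.00010). Cox7a2l was at 82.6, 89.9, 92.4 and 72.5 CPM in KC1 and 182, 229, 234 and 251 in KC2 (1.43 ± 0.14 (SE), edgeR adjusted p = 8.7e-06), and Cox6c was higher as well, at 44.0, 37.2, 47.3 and 33.7 against 81.99, 72.1, 91.3 and 91.7 (1.07 ± 0.14 (SE), edgeR adjusted p = 8.1e-05). None of these 3 genes overlapped between the groups. Cox5b (-0.46 ± 0.15) was lower and Ndufa4 (0.45 ± 0.14) higher. Cox5b lost its call with library totals or without KC1 replicate 1, KC1 replicate 3 or KC2 replicate 2, and Ndufa4 without KC1 replicate 2 or 4. Cox4i1 (-0.12 ± 0.14, adjusted p = 0.46), Cox6a1, Cox7a2 and Cox8a were not called. Cox6a2 (-1.76 ± 0.67) was called at a level of 1.81 against 0.513 CPM, a call lost in 8 of 14 alternatives.

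In complex V, the c ring gene Atp5g1 was at 231, 197, 249 and 198 CPM in KC1 and 102, 87.2, 127 and 102 in KC2 (-1.05 ± 0.14 (SE), edgeR adjusted p = 0.00011), with no overlap. Per kilobase Atp5g1 gave 65.3% of the c ring mRNA in KC1 and 47.2% in KC2, against 16.7% to 27.8% in the 3 hepatic groups. Atp5g2 and Atp5g3 were not called (0.20 ± 0.13 and -0.25 ± 0.13, adjusted p = 0.21 and 0.12). The peripheral stalk split, with Atp5h (0.67 ± 0.13) and Atp5j (0.56 ± 0.14) higher and Atp5o (-0.67 ± 0.12) and Atp5pb (-0.45 ± 0.14) lower. Atp5j2 was higher (0.44 ± 0.14) and Atp5d lower (-0.37 ± 0.12). Each of these calls was lost in 4 of 14 alternatives, and that of Atp5pb in 2. Atp5a1, Atp5b and Atp5c1 were not called, and Atpif1, the inhibitor that binds the F1 head, was higher (0.98 ± 0.13 (SE), edgeR adjusted p = 0.00012).

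In complex I, 9 of 37 members were higher and 5 lower. In the P module 7 of 19 were higher and 1 lower, beside 31.8% of all tested genes called higher, and Ndufa3, Ndufb5 and Ndufb10 of these 7 lost their call in 6, 4 and 1 of 14 alternatives. Ndufa1 was at 22.1, 16.8, 29.0 and 17.4 CPM in KC1 and 57.7, 43.5, 67.4 and 56.3 in KC2 (1.42 ± 0.20 (SE), edgeR adjusted p = 0.00014), followed by Ndufb11 (0.91 ± 0.13), Ndufa6 (0.84 ± 0.17) and Ndufb4 (0.82 ± 0.17). Ndufs4 (-0.53 ± 0.15), Ndufb6 (-0.48 ± 0.15) and Ndufs7 (-0.42 ± 0.13) were lower, calls lost in 1, 4 and 2 of 14 alternatives. Ndufb4b (-1.51 ± 0.55) was lower too at 1.68 against 0.585 CPM, a call lost in 8 of 13 alternatives. Ndufs1 and Ndufv1 were not called, with log2 differences of -0.03 and -0.37. In complex II, Sdha was higher, at 209.8, 259.6, 208 and 208 CPM in KC1 and 323, 285, 299 and 276 in KC2 (0.44 ± 0.12), and Sdhb (-0.53 ± 0.13), Sdhc (-0.50 ± 0.11) and Sdhd (-0.40 ± 0.13) were lower, calls which they lost with library totals. In complex III, Uqcrb (0.78 ± 0.16) and Uqcrh (0.42 ± 0.15) were higher and Uqcrq (-0.64 ± 0.17) and Uqcrc1 (-0.45 ± 0.14) lower. Uqcrh and Uqcrc1 each lost their call in 4 of 14 alternatives, and Uqcrq in 1.

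Cytochrome c and cytochrome c1 were lower in KC2: Cycs was at 297, 232, 333 and 296 CPM in KC1 and 117, 118, 137 and 139 in KC2 (-1.16 ± 0.14 (SE), edgeR adjusted p = 4.8e-05), and Cyc1, the cytochrome c1 of complex III, fell outside the symbol rule and was lower too (-0.74 ± 0.12). Genes of the mitochondrial ribosome were lower in 37 and higher in 3 of 78 cases, with a median of -0.35. Of all tested genes 27.8% were lower and 31.8% higher, with a median of 0.03. With library totals 22 of the 78 were lower and 12 higher with a median of -0.12. In that setting 20.3% of all tested genes were lower and 38.6% higher, with a median of 0.27. Among regulators, Ppargc1b, the coactivator PGC-1 beta, (-3.04 ± 0.16), Pprc1 (-2.32 ± 0.17) and Esrra (-1.27 ± 0.27) were lower and Nrf1 (0.48 ± 0.11), Yy1 and Gabpb1 higher, while Tfam was higher (0.79 ± 0.17). Pdk4, a kinase that shuts off pyruvate dehydrogenase, was at 0.900, 1.32, 0.879 and 1.04 CPM in KC1 and 94.3, 87.7, 56.3 and 93.2 in KC2 (6.33 ± 0.24 (SE), edgeR adjusted p = 4.8e-08).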

How the data were processed

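Poly(A) RNA was sequenced in 17 libraries. The deposited values are expected counts per gene, which need not be whole; the authors used FastQC, HISAT and RSEM with mm10, per the submitters' processing notes, with versions and settings not given in the sources used here. The counts were rounded and tested with edgeR 4.0.16 in R 4.3.3 (TMM scaling, filterByExpr with a minimum count of 10 and a total of 15, robust quasi-likelihood F test), each comparison fitted on its own 2 groups. P-values were adjusted by Benjamini-Hochberg over all tested genes and called below 0.05. CPM used TMM factors set within the 9 hepatic and, separately, the 8 Kupffer libraries, so hepatic and Kupffer levels were not tested against each other. Levels per kilobase used a GENCODE transcript length per gene. The fit was tested on simulated data first.

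The members and gene lists were chosen with earlier results of these data known, some list symbols were updated to the tables' spelling, and motif groups were formed after values were seen. Named were the catalytic core, the isoform pairs, up to 3 called members with the largest change per complex and direction, and the regulators, except for an item that is not reported here; some further members were named after their values were seen. Alternatives were DESeq2 1.42.0 and its size factors, library totals, no count filter, a joint fit, a replicate block, chromosome and length centring, and leaving out each library; library totals and left-out libraries for summed levels were added after seeing the data.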

Additional observations from a re-analysis of the deposited data

Results flagged for a closer look

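Of 178 values tested in the groups of 4 libraries, 7 had a single library far from the other 3 by Dixon's criterion, which chance meets in about 1 in 20 groups. Sdha was at 259.6 CPM in KC1 replicate 2, against 208 to 209.8 in the other KC1 libraries, and Sdhc at 213.3 CPM in KC1 replicate 3, against 179 to 181. Ndufv1 was at 113.5 CPM in KC2 replicate 1, against 78.1 to 81.1, and Cox5b at 97.2 CPM in KC2 replicate 2, against 115 to 118. Complex V summed to 2605 CPM in KC2 replicate 2, against 2900 to 2933 in the other KC2 libraries. Cox7b2 in KC2 replicate 3 (0.166 CPM) and Ndufa4l2 in KC2 replicate 1 (0.099 CPM) were read where the other KC2 libraries held 0 counts.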

How the results depend on the processing

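In KO against WT, higher calls ranged from 14 to 17 and lower calls from 38 to 47 over the alternatives, and in WT early HCC against normal liver from 31 to 37 and from 31 to 33; members not called in either setting were counted as unchanged whatever their sign. With library totals the members' median was -0.20 for KO, 0.083 for early HCC and 0.19 for KC2. KC2 then had 3 lower calls, against 20.3% of all tested genes. Lower calls in KC2 ran from 10 to 18 when a library was left out. Centred on the chromosome median, the members' median was -0.13 for KO and -0.057 for early HCC, and centred on the length trend -0.22 and 0.11. Chromosome centring turned the sign in early HCC of Ndufa2 (0.11), Ndufa7 (-0.18), Ndufv1 (0.021), Ndufv2 (-0.078), Cox8a (0.49), Atp5g3 (-0.094), Atp5j (-0.084), Atp5j2 (-0.0025), Atp5l (-0.12) and Atp5md (0.63). Log2 ratios of summed levels without the most abundant member were -0.10 for complex I, -0.30 for II, -0.13 for III and -0.20 for all members in KO. In early HCC they were -0.29 for complex I, -0.013 for II, -0.37 for III, -0.0038 for IV, -0.22 for V and -0.10 for all, and in KC2 -0.50 for II. Without tissue-specific isoforms the early HCC ratio of complex IV was 0.016. With library totals the KO ratios were -0.11 for complex I, -0.22 for III, -0.15 for IV, -0.37 for V and -0.26 for all; the early HCC ratios were -0.16 for I, 0.48 for II, -0.031 for III, 0.12 for IV, 0.19 for V and 0.10 for all; and the KC2 ratios were 0.27 for I, 0.082 for II, 0.093 for III, 0.12 for IV, 0.14 for V and 0.16 for all. The cause of these shifts was not tested. Deviations of same-numbered replicates had correlations of -0.16 to 0.13 over the comparisons, against -0.13 to 0.14 for unlike numbers. With so few libraries this cannot settle whether the numbers pair the samples, and no pairing was assumed. With the replicate block the calls were 15 higher and 45 lower in KO, 33 and 32 in early HCC, and 18 and 17 in KC2. The members' medians were then -0.17, 0.04 and -0.05. Precision is lowest for the rows under 5 CPM, which are isoform genes and, in Kupffer cells, also Ndufb4b and Ndufb4c; the effect of depth was not tested.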
